A study of Homo sapiens with 6 samples.

Results

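The genes described here encode the machinery that licenses replication origins, fires them and copies DNA at the fork. The list was drawn up by gene function, with earlier results of these data known, and holds 53 of the 67130 genes in the deposited expression table. By role, 16 members were grouped under origin recognition and licensing and 9 under origin firing. A further 10 are polymerase and primase subunits, and 12 form the clamp, its loader and the lagging-strand enzymes. Another 4 protect the fork and 2 assemble chromatin behind it. The licensing group includes GMNN, whose protein blocks a second round of licensing, and MCM8, which acts in recombination. All 53 were found in the table and all 53 passed the filter of a mean of at least 1 FPKM (fragments per unit of transcript length, divided by the depth of each library), which left 12025 genes for testing.

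RNA-seq was done on hTERT-RPE1-TOShOFD1 cells, a telomerase-immortalized retinal pigment epithelial line that carries a short hairpin RNA (shRNA) against OFD1 behind a doxycycline-responsive (Tet-On) promoter. By the methods, the line was made with lentivirus and antibiotic selection. OFD1 is a protein of centrioles and centriolar satellites. The control group is 3 samples without doxycycline, with the genotype given as WT. The OFD1-depleted group is 3 samples kept in 200 ng/mL doxycycline for 72 h, with the genotype given as OFD1 knockdown. Both groups carry the hairpin and were grown in DMEM/F12 with serum and antibiotics. No sample analysed here received doxycycline without the OFD1 hairpin, so the knockdown and the drug cannot be told apart in any result given here. The study describes each sample as a biological replicate. The labels do not say whether the samples of a group came from separate cultures, and the p-values measure the spread between these samples.

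The labels name the tissue as retina and the cells as epithelial, and their extraction notes speak of retinas, while the titles and the methods name RPE1 cells. The keratins KRT8 and KRT18 of simple epithelia together reached 254 to 272 FPKM in control and 294 to 407 FPKM in OFD1-depleted samples. Of 8 retinal pigment epithelium markers, only MITF and OTX2 averaged at least 1 FPKM, and the visual cycle enzyme gene RPE65 stayed at or below 0.209 FPKM. None of 7 photoreceptor and 4 leukocyte markers averaged 1 FPKM, and CRX, SAG and RCVRN were listed at 0 in all 6 samples. If the steps seen in low values are single fragments, the depth was about 37600000 to 39300000 fragments in control and 39700000 to 44100000 in OFD1-depleted samples. That reading is approximate, since only 14.2% to 18.6% of low values lay within 0.02 of a whole multiple. Those shares are the highest over all depths tried, and 4% would be met at a single depth without steps.

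Origins are licensed when the origin recognition complex, CDC6 and CDT1 load the MCM2-7 helicase onto DNA in G1 phase. In S phase the kinase CDC7 with DBF4 activates the loaded helicase, CDC45 and GINS join it, and DNA polymerases alpha, delta and epsilon copy the strands around the sliding clamp PCNA. Many of these genes are transcribed under E2F factors at the entry into S phase.

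E2F factors bind words such as TTTGGCGC and TTTCCCGC. The windows shown here were chosen with the values and matches known, to show what such words look like in place, and are no sample of the list. Firing, clamp and chromatin assembly genes are not among them. CDC6, MCM3 and MCM6 license origins, CLSPN protects the fork, POLA2 is a subunit of the priming polymerase, PRIM1 is the primase subunit with the largest fall of any member, and POLD2 is the polymerase subunit with the smallest difference. Each sequence is the RefSeq promoter (GRCh38.p14) from 250 bases before the start of transcription to 30 after it, 5′ to 3′ on the gene's strand, with E2F words on either strand in capitals. CDC6 lies on the + strand at chr17:40287629-40287908, POLA2 on the + strand at chr11:65261712-65261991, MCM3 on the - strand at chr6:52284713-52284992, MCM6 on the - strand at chr2:135876414-135876693, CLSPN on the - strand at chr1:35769949-35770228, PRIM1 on the - strand at chr12:56752294-56752573 and POLD2 on the - strand at chr7:44123519-44123798.
CDC6: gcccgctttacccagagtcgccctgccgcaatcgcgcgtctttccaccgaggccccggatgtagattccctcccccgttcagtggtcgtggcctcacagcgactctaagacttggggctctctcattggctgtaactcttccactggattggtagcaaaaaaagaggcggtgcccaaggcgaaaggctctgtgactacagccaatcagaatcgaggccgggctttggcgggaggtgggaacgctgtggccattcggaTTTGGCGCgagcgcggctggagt
MCM3: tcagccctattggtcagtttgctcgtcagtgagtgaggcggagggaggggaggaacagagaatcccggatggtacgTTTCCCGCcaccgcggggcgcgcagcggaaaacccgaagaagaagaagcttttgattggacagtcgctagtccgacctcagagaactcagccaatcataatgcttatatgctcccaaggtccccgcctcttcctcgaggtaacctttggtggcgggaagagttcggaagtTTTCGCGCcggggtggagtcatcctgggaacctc
MCM6: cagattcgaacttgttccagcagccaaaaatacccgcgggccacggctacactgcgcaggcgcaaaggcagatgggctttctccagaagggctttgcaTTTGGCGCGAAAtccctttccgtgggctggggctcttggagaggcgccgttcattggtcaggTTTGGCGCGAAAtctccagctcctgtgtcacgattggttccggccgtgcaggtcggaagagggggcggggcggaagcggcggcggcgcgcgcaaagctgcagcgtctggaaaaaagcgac
CLSPN: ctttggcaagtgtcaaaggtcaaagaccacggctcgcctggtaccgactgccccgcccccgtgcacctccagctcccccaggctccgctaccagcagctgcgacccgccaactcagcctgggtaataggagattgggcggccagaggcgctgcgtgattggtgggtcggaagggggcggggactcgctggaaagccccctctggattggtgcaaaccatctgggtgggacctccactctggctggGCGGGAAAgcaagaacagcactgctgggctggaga
POLA2: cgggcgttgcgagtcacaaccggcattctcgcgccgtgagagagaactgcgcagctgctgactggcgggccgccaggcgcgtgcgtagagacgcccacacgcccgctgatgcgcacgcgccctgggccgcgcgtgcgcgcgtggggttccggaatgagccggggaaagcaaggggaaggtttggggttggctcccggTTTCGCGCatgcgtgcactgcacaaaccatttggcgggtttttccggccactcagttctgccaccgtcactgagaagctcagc
PRIM1: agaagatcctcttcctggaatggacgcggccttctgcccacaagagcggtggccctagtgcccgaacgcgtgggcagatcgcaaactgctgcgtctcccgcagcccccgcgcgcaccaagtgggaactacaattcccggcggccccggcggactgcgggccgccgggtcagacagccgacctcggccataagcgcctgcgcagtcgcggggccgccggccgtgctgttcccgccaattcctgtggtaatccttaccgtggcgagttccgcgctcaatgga
POLD2: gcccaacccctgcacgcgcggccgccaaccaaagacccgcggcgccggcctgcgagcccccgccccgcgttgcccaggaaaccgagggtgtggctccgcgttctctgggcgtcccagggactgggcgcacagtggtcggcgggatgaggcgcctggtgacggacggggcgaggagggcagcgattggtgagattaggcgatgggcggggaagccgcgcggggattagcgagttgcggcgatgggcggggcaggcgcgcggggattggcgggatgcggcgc
The CDC6 window holds its E2F word just downstream of the start. MCM3 and MCM6 hold 2 sites each, and in MCM6 both sites read TTTGGCGCGAAA, a pair of overlapping words that was counted as 1 site. PRIM1 and POLD2 hold none of the words searched. Only exact matches to those words were marked, so other E2F-like sequences in any window stand in lower case.

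OFD1 itself (ENSG00000046651, GRCh38 chromosome X from 13734745 to 13769357) measured 3.34, 3.62 and 3.44 FPKM in control replicates 1, 2 and 3, against 0.795, 0.763 and 1.43 FPKM after depletion. The groups did not overlap, and 28.7% of the control mean remained. This is a log2 fold change of -1.75 (standard error 0.26, limma adjusted p = 0.00085).

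Replication genes were lower in OFD1-depleted cells almost throughout. Of the 53, 48 (90.6%) were called lower at a limma adjusted p under 0.05, against 11.9% of all genes tested. None was called higher, against 5.07% of all genes tested, and none was higher at an unadjusted limma p under 0.05 either, while 49 were lower at that level. With the call and a fall of at least 1 on the log2 scale together, the count was 33 members, against 4.39% of all genes. In 50 members every OFD1-depleted value lay below every control value, which held for 22.3% of all genes tested. The 5 members that were not called were ORC4, ORC5, POLD2, RPA2 and TIPIN. The samples are bulk RNA, so fewer cells in a phase that uses these genes and less RNA per cell cannot be told apart.

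**Figure D1:**
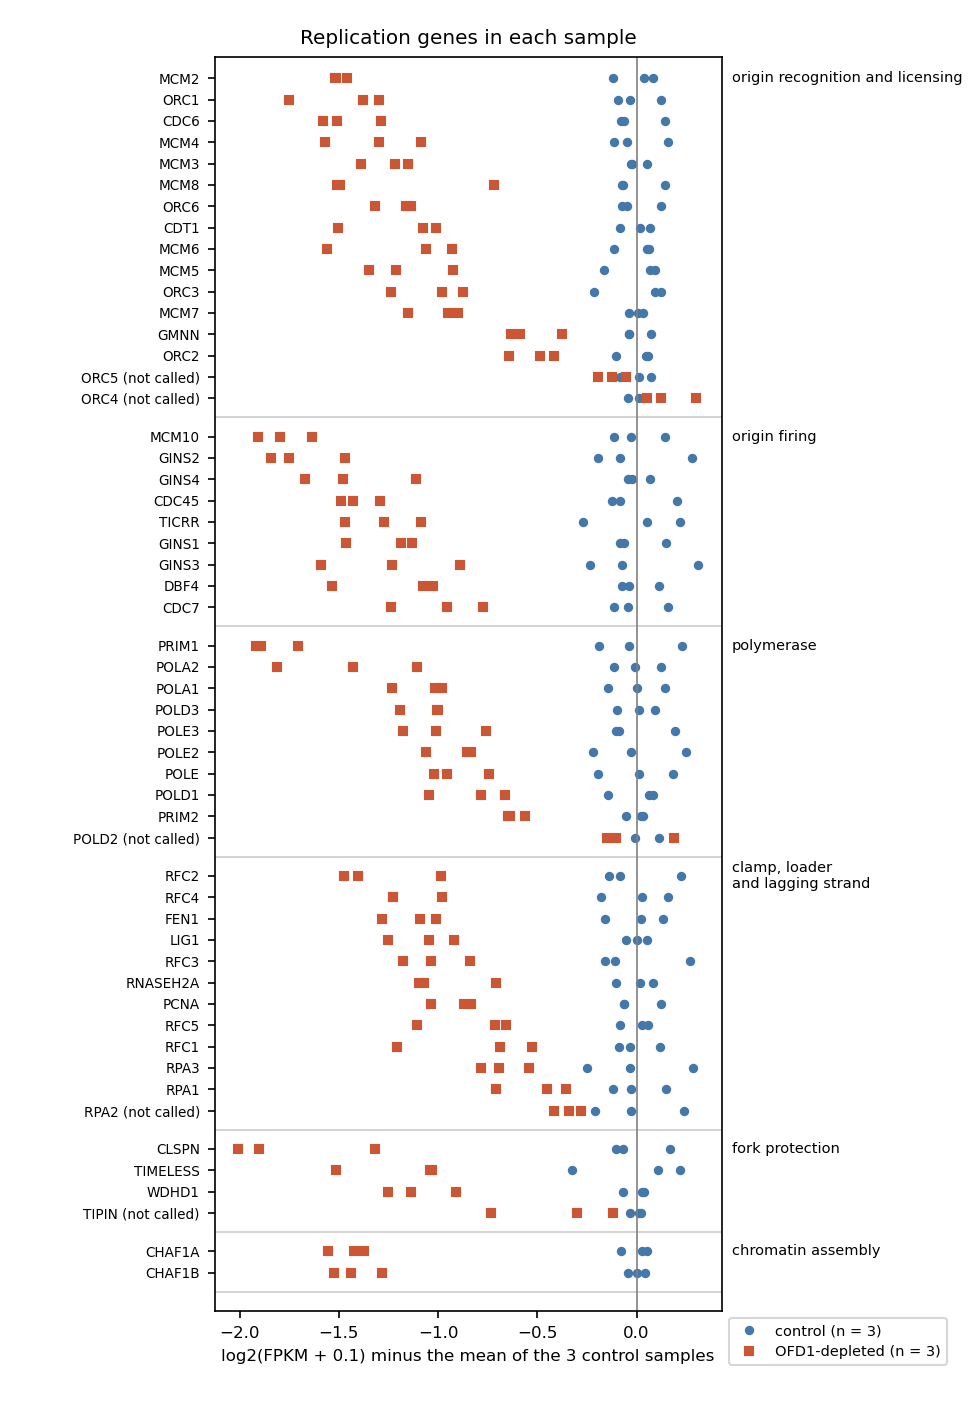
Each row is a replication gene, grouped by role. Points give log2(FPKM + 0.1) in each sample minus the mean of the 3 control samples, with circles for control and squares for OFD1-depleted samples. The squares lie left of all circles in 50 of 53 rows, and ORC4, ORC5 and POLD2 are the rows where they do not.

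The median log2 fold change over the 53 members was -1.13, and over all genes tested it was -0.03. Fold changes were computed on log2(FPKM + 0.1), which understates the change of low genes. Across members the fold change ran from -1.84 for PRIM1 to 0.16 for ORC4. The median member held 45.6% of its control mean. Summed over the members, expression was 857, 963 and 868 FPKM in control replicates 1, 2 and 3, against 502, 498 and 462 FPKM after depletion.

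**Figure D2:**
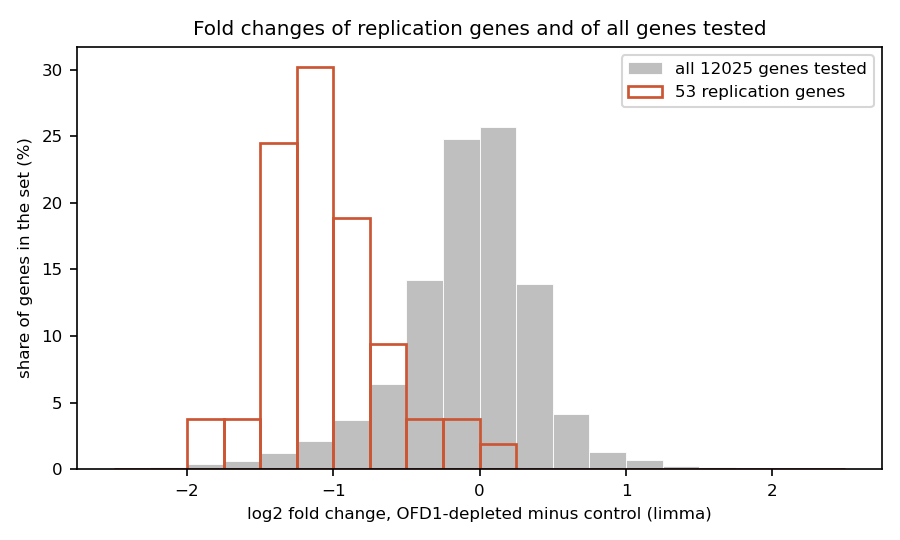
Share of genes (%) in each bin of 0.25 in log2 fold change (OFD1-depleted minus control), as filled bars for all 12025 genes tested and as outlined bars for the 53 replication genes. The outlined bars peak between -1.25 and -1, with 16 members, while the filled bars peak around 0. A further 20 of all genes lie outside the range drawn.

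Single replicates gave much the same picture. Against the control mean, the median member was at -0.98, -1.19 and -1.11 on the log2 scale in OFD1-depleted replicates 1, 2 and 3, with 52, 51 and 52 members below the control mean. Each control set against the other controls gave medians of -0.08, 0.13 and -0.06. Control replicate 2 was the highest control for 39 members and OFD1-depleted replicate 1 the highest of its group for 28. Mitochondrially encoded protein genes took 10.3%, 6.65% and 11% of all FPKM in control replicates 1, 2 and 3, against 12.7%, 13.1% and 16.0% in the OFD1-depleted replicates, so that share was also higher in the depleted group. After scaling to the same total without those genes, an alternative added after the data were seen, 47 members and 1432 of all genes were called lower. Scaling to the same total (TPM) gave 49 members and 1988 of all genes called lower, against 1429 of all genes in the main fit. The member median was then -1.27 and the median over all genes -0.18. Before that scaling, FPKM totals were 408302 to 414547 in control and 433262 to 493510 in OFD1-depleted samples.

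Origin recognition and licensing genes were called lower in 14 of 16 cases, with a median log2 fold change of -1.19. The first step belongs to the origin recognition complex. ORC1 (chromosome 1, 52372829 to 52404423), the ATPase subunit that is made and destroyed with the cell cycle, measured 3.82, 3.66 and 4.27 FPKM in control replicates 1, 2 and 3, against 1.53, 1.09 and 1.44 FPKM after depletion. Its groups were far apart, with a log2 fold change of -1.48 (standard error 0.20, limma adjusted p = 0.000548). ORC4 (chromosome 2, 147930396 to 148021604), another ATPase-fold subunit of the same complex, measured 3.86, 3.92 and 3.72 FPKM in control and 4.74, 4.18 and 3.98 FPKM in OFD1-depleted samples. Here all OFD1-depleted values lay above the control values, but the difference of 0.16 on the log2 scale was not called (95% interval -0.18 to 0.49, limma adjusted p = 0.527). ORC5 (chromosome 7, 104126341 to 104208047) gave 10.4, 11.6 and 11.1 FPKM in control and 10.1, 9.62 and 10.6 FPKM in OFD1-depleted samples. Those groups overlapped, at a log2 difference of -0.12 (95% interval -0.40 to 0.15, limma adjusted p = 0.551). Over the alternatives the difference ran from 0.02 to 0.28 for ORC4 and from -0.27 to -0.03 for ORC5, and neither was called in any of those that tested it.

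The remaining subunits were lower. ORC6 fell by 1.21 and ORC3 by 1.03 on the log2 scale, from 14.5 ± 1.08 to 6.24 ± 0.429 FPKM and from 12.8 ± 1.61 to 6.23 ± 0.793 FPKM (SD, n = 3 per group). ORC2 fell by 0.51 (limma adjusted p = 0.0387), and its call was the least stable of the members. It was lost in 8 of the 16 alternatives that tested it, among them leaving out any control replicate or OFD1-depleted replicate 1 or 3, with adjusted p up to 0.158. ORC1 was scarcer after depletion relative to the mean of ORC2 to ORC5. The log2 ratio of ORC1 to that mean was -1.10, -1.26 and -0.87 in the control replicates. It was -2.04, -2.37 and -2.13 in the OFD1-depleted replicates, with no overlap. That mean includes the uncalled ORC4 and ORC5 and leaves out ORC6, so the result does not extend to ORC6.

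Loading factors and the helicase followed. CDC6 (chromosome 17, 40287879 to 40304657), the ATPase that joins ORC to load the helicase, measured 8.84, 10.3 and 8.92 FPKM in control and 3.77, 3.05 and 3.21 FPKM in OFD1-depleted samples. The depleted values were close together and none reached the controls, with a log2 fold change of -1.46 (standard error 0.15, limma adjusted p = 9.69e-05). CDT1, which brings MCM2-7 to the origin, fell by 1.19, from 13.6 ± 0.716 to 5.93 ± 1.06 FPKM (SD, n = 3 per group). GMNN encodes geminin, the protein that binds CDT1 and blocks a second round of licensing. It fell by 0.53, from 20.8 ± 0.888 to 14.4 ± 1.37 FPKM (SD, n = 3 per group, limma adjusted p = 0.0155), and its call was lost without control replicate 1, 2 or 3 or OFD1-depleted replicate 3, with adjusted p from 0.05 to 0.0644. The log2 ratio of CDT1 to GMNN was -0.67, -0.68 and -0.52 in control and -1.32, -1.01 and -1.55 in OFD1-depleted samples, again without overlap.

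All 6 subunits of the MCM2-7 helicase were called lower, between -1.50 and -1. MCM2 (chromosome 3, 127598410 to 127622436) measured 17.6, 19.6 and 20.2 FPKM in control and 6.61, 6.63 and 6.89 FPKM in OFD1-depleted samples. The depleted replicates were nearly the same, and the log2 fold change of -1.50 (standard error 0.13) had the smallest adjusted p of all members, 3.22e-05 by limma. MCM4 (chromosome 8, 47960185 to 47978160) gave 27, 31.2 and 25.8 FPKM in control and 13.1, 9.35 and 11.3 FPKM in OFD1-depleted samples. Its groups did not overlap either, and it fell by 1.32 (standard error 0.15, limma adjusted p = 0.000186). MCM3 (-1.25), MCM6 (-1.18), MCM5 (-1.16) and MCM7 (-1) completed the ring. MCM7 was the most abundant subunit in both groups, at 61.9 ± 1.65 and 31.0 ± 2.82 FPKM (SD, n = 3 per group). The log2 ratio of the highest to the lowest subunit was 1.90 to 2.12 in control and 2.01 to 2.68 in OFD1-depleted samples, and these ranges overlapped. MCM8, a related helicase outside the ring that acts in recombination, fell by 1.24, from 2.53 ± 0.228 to 1.05 ± 0.381 FPKM (SD, n = 3 per group), with OFD1-depleted replicate 1 above the other two. Its fold change was -0.80 with a pseudocount of 1, and its call was lost with no filter on low values (limma adjusted p = 0.0672).

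**Figure D3:**
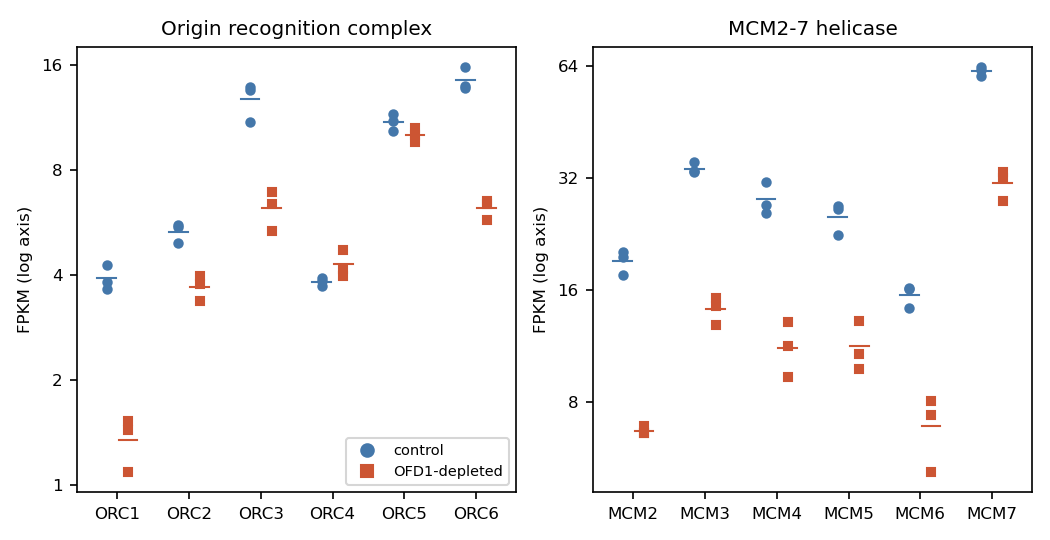
FPKM on a log axis for the 6 subunits of the origin recognition complex (left) and of the MCM2-7 helicase (right). Circles are the 3 control samples, squares the 3 OFD1-depleted samples and short lines the group means. The helicase subunits all shifted down, while ORC4 and ORC5 were not called.

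All 9 origin firing members were called lower, with a median of -1.27. MCM10 (chromosome 10, 13161558 to 13211110), which helps activate the loaded helicase, measured 3.08, 3.28 and 3.71 FPKM in control and 0.818, 0.892 and 1.01 FPKM in OFD1-depleted samples. It kept 27% of control, the smallest share of any member, at a log2 fold change of -1.78 (standard error 0.21, limma adjusted p = 0.000248). With a pseudocount of 1 that value was -1.19. CDC45 (chromosome 22, 19479457 to 19520612), a part of the active helicase, gave 10.9, 13.7 and 11.2 FPKM in control and 4.78, 4.35 and 4.17 FPKM in OFD1-depleted samples. The groups were well apart at -1.40 (standard error 0.15, limma adjusted p = 9.69e-05).

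The GINS tetramer completes that helicase, and its 4 genes fell together, between -1.69 and -1.24. GINS2 (chromosome 16, 85676198 to 85690073) measured 7.27, 9.36 and 6.73 FPKM in control and 2.22, 2.72 and 2.08 FPKM in OFD1-depleted samples. Its control replicate 2 stood highest, all depleted values were lower than any control, at a fold change of -1.69 (standard error 0.18, limma adjusted p = 0.000112). GINS4 (chromosome 8, 41529218 to 41545030) gave 5.12, 5.55 and 5.20 FPKM in control and 2.39, 1.83 and 1.59 FPKM in OFD1-depleted samples. It stood at -1.42 (standard error 0.19, limma adjusted p = 0.000429), and GINS1 (-1.26) and GINS3 (-1.24) lay close to it.

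The kinase that triggers firing had the smallest fold changes of this group. Its catalytic subunit CDC7 (chromosome 1, 91500851 to 91525764) measured 3.78, 4.59 and 3.97 FPKM in control and 2.07, 1.68 and 2.36 FPKM in OFD1-depleted samples. All depleted values were lower, at -0.99 (standard error 0.19, limma adjusted p = 0.00465). DBF4 (chromosome 7, 87876216 to 87909553), its activating subunit, gave 8.33, 7.51 and 7.32 FPKM in control and 3.73, 2.60 and 3.6 FPKM in OFD1-depleted samples. The groups did not overlap, at -1.21 (standard error 0.17, limma adjusted p = 0.000691). TICRR, which links the cyclin-dependent kinase signal to CDC45 loading, was the scarcest member in both groups and fell by 1.27, from 2.01 ± 0.355 to 0.772 ± 0.116 FPKM (SD, n = 3 per group). With a pseudocount of 1 its fold change was -0.76 (limma adjusted p = 0.0055). TICRR, CLSPN and MCM10 were the 3 members whose OFD1-depleted mean was under 1 FPKM.

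Polymerase genes were called lower in 9 of 10 cases, with a median of -0.95 and the widest spread of any role. PRIM1 (chromosome 12, 56731296 to 56752374), the catalytic primase subunit, measured 9.55, 11.5 and 8.57 FPKM in control and 2.94, 2.52 and 2.57 FPKM in OFD1-depleted samples. This was the largest fall of any member, -1.84 (standard error 0.16, limma adjusted p = 3.54e-05), with groups far apart. PRIM2 (chromosome 6, 57314805 to 57646850), the large primase subunit, gave 10.5, 9.96 and 10.6 FPKM in control and 6.56, 6.61 and 6.98 FPKM in OFD1-depleted samples. It fell by 0.62 (standard error 0.13, limma adjusted p = 0.00701), again without overlap. The subunits were about level in control, with a log2 ratio of PRIM1 to PRIM2 of -0.14, 0.20 and -0.30, and PRIM1 was the scarcer in all OFD1-depleted replicates, at -1.16, -1.39 and -1.44. That ratio, and the ratio of POLD1 to POLD2, were chosen after the values were seen.

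Within polymerase alpha, POLA2 (chromosome 11, 65261920 to 65305589), the regulatory subunit, measured 8.58, 9.22 and 10.1 FPKM in control and 3.39, 2.57 and 4.25 FPKM in OFD1-depleted samples. The depleted replicates were scattered but all lower, at -1.45 (standard error 0.19, limma adjusted p = 0.000367). POLA1 (chromosome X, 24693873 to 24996986), the catalytic subunit, gave 2.96, 3.27 and 2.67 FPKM in control and 1.45, 1.20 and 1.41 FPKM in OFD1-depleted samples. It fell by 1.08 (standard error 0.20, limma adjusted p = 0.00418) with no overlap.

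Polymerase delta was split between its subunits. POLD2 (chromosome 7, 44114680 to 44124358), an accessory subunit, measured 70.9, 82.3 and 75.8 FPKM in control and 70.9, 86.8 and 68.8 FPKM in OFD1-depleted samples. The groups overlapped fully and the difference was -0.02 on the log2 scale (95% interval -0.32 to 0.28, limma adjusted p = 0.939), with values from -0.17 to 0.04 over the alternatives and a sign that turned in 4 of 17. POLD3 (chromosome 11, 74493851 to 74669117), the subunit that binds PCNA, gave 7.37, 7.79 and 6.81 FPKM in control and 3.61, 3.15 and 3.59 FPKM in OFD1-depleted samples. That was a clear separation at -1.07 (standard error 0.15, limma adjusted p = 0.000563). The catalytic subunit POLD1 fell by 0.83, and its log2 ratio to POLD2 went from -2.47, -2.48 and -2.33 in control to -2.99, -3.41 and -3.33 in OFD1-depleted samples. In polymerase epsilon, POLE (-0.91), POLE2 (-0.92) and POLE3 (-0.98) fell by similar amounts, and the log2 ratio of POLE3, a histone-fold subunit, to POLE2 was 2.43 to 2.65 in control and 2.36 to 2.63 in OFD1-depleted samples, with overlap.

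**Figure D4:**
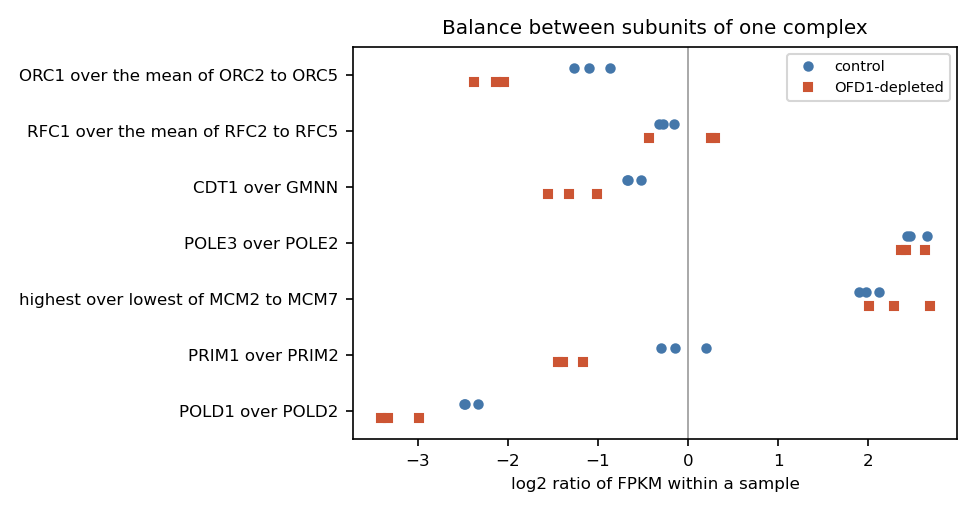
Log2 ratio of FPKM between subunits or partners within each sample, with circles for control and squares for OFD1-depleted samples. ORC1 fell relative to the mean of ORC2 to ORC5 in every OFD1-depleted sample, as did CDT1 to GMNN, PRIM1 to PRIM2 and POLD1 to POLD2. The ratios of POLE3 to POLE2, of RFC1 to the small loader subunits and across the MCM ring overlapped between groups.

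Clamp, clamp loader and lagging-strand genes were called lower in 11 of 12 cases, with a median of -0.93. PCNA, the sliding clamp, was the most abundant member in control and is given by sample for that reason, chosen after its values were seen. It measured 117, 133 and 117 FPKM in control and 66.8, 68.4 and 59.6 FPKM in OFD1-depleted samples. No values overlapped, and PCNA fell by 0.91 (standard error 0.13, limma adjusted p = 0.000575). POLD2, at 75.5 ± 9.85 FPKM (SD, n = 3), was the most abundant member after depletion, where PCNA held 64.9 ± 4.68 FPKM (SD, n = 3).

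Replication factor C opens the clamp and loads it onto primed DNA, and its 5 genes were all called lower, between -1.29 and -0.81. RFC2 (chromosome 7, 74231499 to 74254458) measured 18.6, 23.9 and 19.3 FPKM in control and 7.68, 10.3 and 7.30 FPKM in OFD1-depleted samples. Replicate 2 was the highest of its group on both sides, at a fold change of -1.29 (standard error 0.17, limma adjusted p = 0.000367). RFC4 (chromosome 3, 186789880 to 186807058) gave 15.7, 17.2 and 13.6 FPKM in control and 7.77, 6.53 and 6.54 FPKM in OFD1-depleted samples. It fell by 1.14 (standard error 0.14, limma adjusted p = 0.000339) without overlap, and RFC3 (-1.02) and RFC5 (-0.82) fell too. RFC1, the large subunit that makes the loader specific for PCNA, fell by 0.81 (limma adjusted p = 0.0101), a call lost without control replicate 2 (adjusted p = 0.0516) and with no filter on low values (0.0804). Its log2 ratio to the mean of RFC2 to RFC5 was -0.28, -0.32 and -0.16 in control and 0.25, -0.43 and 0.30 in OFD1-depleted samples, where replicate 2 lay below the controls and the others above.

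Enzymes that finish the lagging strand were lower as well. FEN1 (chromosome 11, 61792911 to 61797238), the flap endonuclease, measured 33.2, 35.9 and 29.3 FPKM in control and 15.3, 16.2 and 13.4 FPKM in OFD1-depleted samples. The groups were well apart at -1.13 (standard error 0.14, limma adjusted p = 0.000254). LIG1 (chromosome 19, 48115445 to 48170603), the ligase that seals Okazaki fragments, gave 18.7, 19.4 and 20.1 FPKM in control and 9.35, 10.2 and 8.07 FPKM in OFD1-depleted samples. It fell by 1.07 (standard error 0.13, limma adjusted p = 0.000328), and RNASEH2A, the catalytic subunit of the nuclease that removes ribonucleotides, fell by 0.96.

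Replication protein A coats single-stranded DNA, and its genes had the smallest fold changes of this group. RPA2 (chromosome 1, 27891524 to 27914746) measured 26.8, 32.3 and 23.7 FPKM in control and 20.5, 22.5 and 21.6 FPKM in OFD1-depleted samples. The depleted values lay just under the lowest control, at a difference of -0.35 that was not called (95% interval -0.65 to -0.04, limma adjusted p = 0.119). RPA1 (chromosome 17, 1829702 to 1900082) gave 19.9, 24.0 and 21.2 FPKM in control and 16.9, 13.2 and 15.8 FPKM in OFD1-depleted samples. It fell by 0.50 (standard error 0.14, limma adjusted p = 0.0315), a call lost in 6 of 17 alternatives, among them leaving out any control replicate or OFD1-depleted replicate 3, with adjusted p up to 0.107. RPA3 fell by 0.67, from 10.2 ± 1.93 to 6.30 ± 0.542 FPKM (SD, n = 3 per group, limma adjusted p = 0.0157), and lost its call without control replicate 1 (adjusted p = 0.0953), without OFD1-depleted replicate 1 (0.0512) and with no filter on low values (0.0788). RPA2 was called lower under TPM scaling (adjusted p = 0.0329) and array weights (0.0398), and its difference was -0.23 without control replicate 2 (adjusted p = 0.324 by limma).

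Fork protection genes were called lower in 3 of 4 cases, with a median of -1.15. CLSPN (chromosome 1, 35720218 to 35769978) encodes claspin, which carries the checkpoint signal from stalled forks to CHK1. It measured 3.13, 3.80 and 3.21 FPKM in control and 1.29, 0.761 and 0.829 FPKM in OFD1-depleted samples. The fold change of -1.74 (standard error 0.24, limma adjusted p = 0.00063) was the third largest of the members, although OFD1-depleted replicate 1 was higher than the others. TIMELESS and TIPIN encode partners of a complex that travels with the fork. TIMELESS (chromosome 12, 56416363 to 56449426) gave 9.24, 13.5 and 12.5 FPKM in control and 5.63, 4 and 5.59 FPKM in OFD1-depleted samples, and fell by 1.19 (standard error 0.19, limma adjusted p = 0.00135) without overlap. TIPIN (chromosome 15, 66336191 to 66386746) gave 4.73, 4.91 and 4.88 FPKM in control and 3.91, 4.45 and 2.87 FPKM in OFD1-depleted samples. Its depleted values were all lower but widely spread, and the difference of -0.38 was not called (95% interval -0.78 to 0.01, limma adjusted p = 0.179), except with array weights (0.0211) and without OFD1-depleted replicate 2 (0.0463). Without OFD1-depleted replicate 3 the difference was -0.21 (adjusted p = 0.486 by limma). WDHD1 (chromosome 14, 54938949 to 55027105), which ties polymerase alpha to the helicase, measured 4.99, 5.03 and 4.67 FPKM in control and 2.56, 2.17 and 2 FPKM in OFD1-depleted samples. It fell by 1.10 (standard error 0.17, limma adjusted p = 0.0012), with tight groups.

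Chromatin assembly factor 1 places histones on new DNA, and both of its listed subunits fell by nearly the same amount. CHAF1A (chromosome 19, 4402640 to 4445018) measured 11.8, 12.9 and 12.7 FPKM in control and 4.74, 4.59 and 4.18 FPKM in OFD1-depleted samples. CHAF1B (chromosome 21, 36385392 to 36419015) gave 4.78, 4.95 and 5.08 FPKM in control and 1.65, 1.97 and 1.76 FPKM in OFD1-depleted samples. Replicates of both were close together and the groups far apart, at log2 fold changes of -1.45 (limma adjusted p = 4.35e-05) and -1.41 (limma adjusted p = 0.000234).

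For the members given by sample whose groups did not overlap, the two-sided exact permutation test of the group means gave p = 0.1, the smallest value that 3 samples against 3 allow. Calls therefore rest on the limma fit, which shares the spread across all genes tested.

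Falls were found at all levels of abundance. In control the members ranged from 2.01 FPKM for TICRR to 122 FPKM for PCNA, with a median of 11 FPKM, and in OFD1-depleted samples the median was 5.59 FPKM. Among the most abundant genes, POLD2 was not called while MCM7 and PCNA fell. Among the scarce ones, ORC4 was not called while MCM10, CLSPN and ORC1 fell. By mean FPKM, ORC4 ranked 48 of 53 in control and 31 after depletion, and PRIM1 went from 31 to 41.

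E2F words were common in the promoters of these genes, and the median fold change was equal with and without them. The words TTTCCCGC, TTTGGCGC, TTTCGCGC and TTTGCCGC were searched on both strands of the RefSeq windows from 250 bases before to 50 after each start, and overlapping matches counted as 1 site. A window was matched for 47 of the 53 members and not for MCM4, MCM5, GINS4, POLD3, RPA2 and RPA3. Of the 47, 22 (46.8%) held a word in at least 1 window. The share was 6.95% of 8982 other genes tested and 3.99% of all 27305 genes with a window. By role it was 9 of 14 for licensing, 4 of 8 for firing, 4 of 9 for polymerases, 3 of 10 for the clamp and lagging strand, 2 of 4 for fork protection and 0 of 2 for chromatin assembly. With only the window listed first for each gene, the shares were 40.4% of members and 5.61% of other genes tested.

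The median log2 fold change was -1.13 both in the 22 members with a word and in the 25 without. With a word, 95.5% were called lower and fold changes ran from -1.74 to -0.38. Without a word, 88.0% were called lower and the range was -1.84 to 0.16, with ORC4, ORC5 and POLD2 at its top. PRIM1, MCM10, ORC1, CHAF1A and CHAF1B held none and fell by more than 1.4, while TIPIN held 1 site and was not called. Other genes tested had a median of -0.10 with a word and -0.03 without, and 17.0% and 12.0% of them were called lower. A word is a match of letters and not a bound site, and its absence says only that these letters are not in the window.

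The share of another pair of words was lower in members than elsewhere. The cell cycle genes homology region, written TTTGAA or TTCGAA, is known from promoters of genes used in G2 and mitosis. It was present in 3 of 47 members (6.38%), against 15.5% of other genes tested and 22.8% of other genes called lower. The CCAAT box was present in 59.6% of members and 43.6% of other genes tested. Median GC content of the windows was 65.0% in members and 65.7% in other genes tested.

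**Figure D5:**
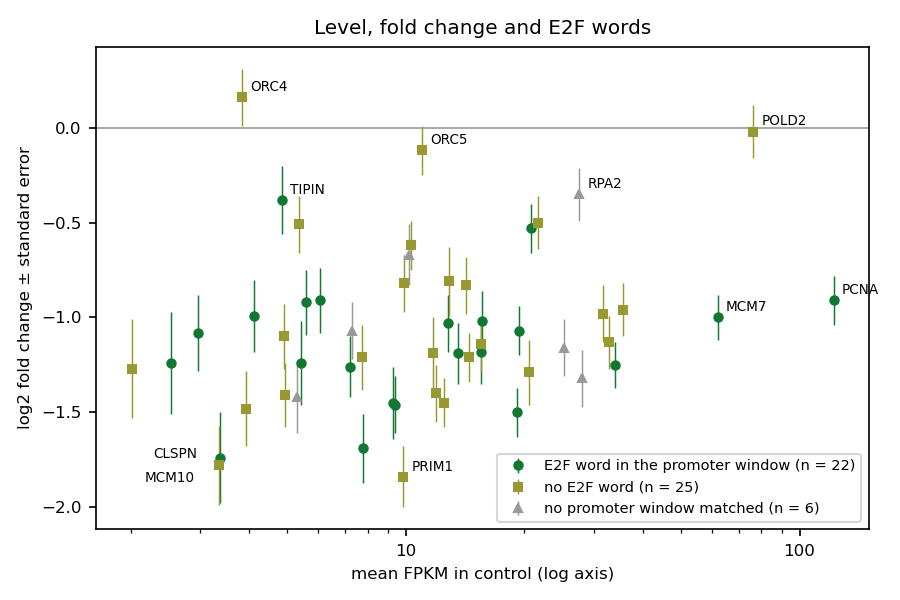
Mean FPKM in control (log axis) against log2 fold change with its standard error for the 53 members. Circles hold an E2F word in a promoter window (22 genes), squares hold none (25 genes) and triangles had no window matched (6 genes). Circles run from -1.74 to -0.38 and squares from -1.84 to 0.16, and the uncalled ORC4, ORC5, POLD2, RPA2 and TIPIN sit at the top at very different levels.

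A further 27 replication genes outside the list, were listed for comparison. Of the 25 that passed the filter, 12 (48.0%) were called lower and none higher, by limma or at an unadjusted p under 0.05, and their median was -0.74. The largest falls were in DTL, TONSL and MMS22L. DTL, the ubiquitin ligase adaptor that removes CDT1 in S phase, measured 7.96, 8.24 and 7 FPKM in control and 3.05, 1.98 and 3.01 FPKM in OFD1-depleted samples, a fold change of -1.52 (limma adjusted p = 0.000316). TONSL and MMS22L, partners in the repair of stalled forks, had fold changes of -1.49 and -1.33 (limma adjusted p = 0.000329 and 0.00305). ATAD5 and MCM9 were under the filter.

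Several of these comparison genes are partners of members, and are named here after their values were seen. RNASEH2B (-0.14) and RNASEH2C (-0.04), the structural partners of RNASEH2A, were not called. POLD4 (0.19) and POLE4 (0.20), small subunits of polymerases delta and epsilon, were not called either, which puts them beside POLD2. Of the paralogous histone chaperones that hand histones to CHAF1, ASF1B fell by 1.32, from 26.4 ± 0.549 to 10.6 ± 2.31 FPKM, while ASF1A stood at 14.7 ± 0.886 and 13.5 ± 0.201 FPKM (SD, n = 3 per group), a difference of -0.12 that was not called.

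Some members share sequence or position with other genes, and how reads common to both were assigned cannot be seen in the deposited values. In 17 members the gene span overlaps another tested gene, 6 of them on the same strand. PRIM1 shares 333 bases with NACA, which is far more abundant at 249 and 293 FPKM in control and OFD1-depleted samples and was not lower (0.22). FEN1 lies almost wholly within the span of FADS2, which was at 103 and 51.1 FPKM and had a log2 difference of -1. POLA2 lies almost wholly within AP000944.5, which had a difference of 1.01 at 1.31 and 2.62 FPKM, and POLD3 overlaps AP001372.2 over 4683 bases. CHAF1B shares 757 bases with MORC3 (0.17), and MCM7 hosts the microRNA gene MIR25. The methods name a directional library kit, the labels name that kit beside another (TruSeq), and the strand setting of the counting is not given in the sources used here. To that extent RPA3, RNASEH2A and TICRR, which overlap UMAD1, HOOK2 and KIF7 on the opposite strand, are uncertain. Named copies of 10 members, 17 in all, were listed at no more than 0.0988 FPKM.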

How the data were processed

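By the methods, the authors aligned 150 bp paired-end reads to GRCh38 with HISAT2 (version 2.0.5 by the submitters' processing notes) and the Ensembl version 94 reference, and StringTie (version not given in the sources used here) summarized them per gene. The deposited values are FPKM for each sample, without pooling. Without read counts no count test was run, and the depth read from the steps of low values is approximate. Gene lengths for that reading came from GENCODE 44, not from the Ensembl reference of the authors. The 6464 genes on alternative contigs were at 0 in all samples.

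Samples were grouped by their titles. Expression was compared as log2(FPKM + 0.1) where the mean of a gene over all samples was 1 FPKM or more, with limma 3.58.1 in R 4.3.3 (trend of variance on mean, two-sided) and Benjamini-Hochberg adjustment over all genes tested. A gene was called at an adjusted p under 0.05. The fit was tested on simulated data with independent normal noise, which says nothing of effects shared between genes or samples. The members, role groups, comparison lists and motifs were chosen with earlier results of these data known, so no p-value is given for the list as a whole. In each role group, values by sample are given for up to 4 called members with the largest fold changes and non-overlapping groups and for the 2 members with the smallest, and of the comparison genes the 3 called lower with the largest falls are named. Overlaps of gene spans used the coordinates in the table. Promoter windows and sequences came from RefSeq (GRCh38.p14), matched by symbol. Python 3.11.15, numpy 2.4.6, pandas 2.3.3, scipy 1.17.1 and matplotlib were used.

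Alternatives tried were pseudocounts (1 or 0.01 FPKM), other filters (none, or 5 FPKM), TPM, median-of-ratios and quantile scaling, limma without a trend, with array weights and with the replicate number as a block, and each sample left out. A rescaling that leaves out the mitochondrial genes was added once the data had been seen. Pairing of the listed hairpin's seed with the members' mRNAs was not tested. Another marker gene is not reported here.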

Additional observations from a re-analysis of the deposited data

How the results depend on the processing

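Of 885 fold changes of single members over 17 alternatives, 853 kept their direction and their side of the threshold, 24 lost the call (MCM8, ORC2, RFC1, RPA1, RPA3 and GMNN), 4 gained it (RPA2 and TIPIN) and 4 turned sign. All 4 were POLD2, at 0.04 with median-of-ratios scaling, 0.04 without control replicate 2, 0.02 without OFD1-depleted replicate 1 and 0.04 without OFD1-depleted replicate 3. Over all fits with a sample left out, POLD2 lay between -0.12 and 0.04. Among the members, 42 were called lower in every alternative that tested them.

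With a sample left out, 44 to 49 members and 867 to 1741 of all genes were called lower, and 244 to 1077 of all genes higher. The count of all genes lower went from 1429 to 904 without control replicate 1 and 867 without control replicate 3. The count higher went from 610 to 251 without control replicate 1, 244 without control replicate 3, 321 without OFD1-depleted replicate 1, 398 without OFD1-depleted replicate 3 and 1077 without OFD1-depleted replicate 2. The member median was -0.98 with a pseudocount of 1, which shrinks low genes, and -1.27 with TPM scaling. With no filter, 823 genes were lower and 260 higher, with 43 members lower. More genes then entered both the adjustment and the fit of the variance trend, and which of these moved the calls was not tested. TPM scaling left 268 genes higher, quantile normalization gave 1093 higher, and array weights gave 2263 lower and 1693 higher. The cause was not tested. Fewer members passed the filter at 5 FPKM. Of those that did, 34 were called lower, all but ORC5, POLD2 and RPA2, and none lost a call made in the main fit.

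With the replicate number as a block, 47 members were called lower, and ORC2 lost its call (limma adjusted p = 0.0627). Over all genes the calls rose with the block, from 1429 to 1534 lower and from 610 to 762 higher. Deviations of samples with the same number correlated at 0.058, 0.048 and 0.011 across genes, and those of samples with different numbers at -0.08 to 0.05. The labels' numbers were not taken as pairs in the main fit. Values this small cannot settle whether the samples were paired. No read counts were tested, so how far depth limits the scarcest members was not tested. By mean FPKM these were TICRR and MCM8 in control, and TICRR and MCM10 after depletion.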
